A study of Mus musculus with 8 samples.

Results

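Costimulatory receptors and ligands of T cells were followed through naive CD4 and CD8 T cells of mice with and without the gene Trappc1. The genes were 3 ligands of the tumour necrosis factor (TNF) family, Tnfsf4 (OX40 ligand), Tnfsf8 (CD30 ligand) and Cd40lg (CD40 ligand), 2 receptors of the immunoglobulin family, Cd28 and Icos, and 5 receptors of the TNF receptor family, Cd27, Tnfrsf18 (GITR), Tnfrsf4 (OX40), Tnfrsf9 (4-1BB) and Tnfrsf1b (TNF receptor 2). They were chosen by symbol and make 10 of the 23337 gene symbols in each table. All 10 averaged 1 TPM or more (a length-corrected share of the transcripts in a library, scaled to the same total in each) over the 8 libraries and so passed the filter, as did 11786 symbols in all.

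RNA sequencing was done on CD62L+CD44low cells sorted from spleens and mLNs of mice aged 4 weeks. Per the labels, the groups were CD4 KO and CD8 KO, from mice with a conditional knockout (cKO) of Trappc1 by CD4-cre, and CD4 WT and CD8 WT, from wild-type mice, with 2 libraries each (replicates 1 and 2). The titles mark all libraries as FRESH and no treatment is named. CD4-cre is a Cre recombinase driven by Cd4 regulatory sequence. It acts in thymocytes before the lineages part, so deletion can reach both CD4 and CD8 T cells. The Trappc1 RNA of each library is given below, and it overlapped between CD8 KO and CD8 WT. Trappc1 encodes a subunit of the TRAPP complexes, which tether vesicles on their way to and through the Golgi. The strain, the deleted part of Trappc1, whether WT mice carried Cre and whether replicates came from separate mice: none of these is stated in the labels.

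A naive T cell needs, beside its antigen receptor, a second signal from costimulatory receptors. CD28 is present on resting cells and binds CD80 and CD86 on antigen-presenting cells, whereas ICOS and most TNF family receptors are known for being induced after activation and for sustaining survival and helper functions. CD27 and GITR are exceptions in that resting mouse T cells already carry them. TNF family receptors recruit TRAF adaptor proteins and activate NF-kB, and CD28 and ICOS recruit phosphoinositide 3-kinase.

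Depth, estimated from the deposited coverage and FPKM, was 3.03 to 4.01 gigabases aligned per library. Because TPM values carry no read counts, the counting error of single genes is unknown, and an exact 0 may be a missed estimate. Cd4 and Cd8a matched the sorted lineage in all libraries. Replicates of CD8 WT were unlike each other. The library labelled CD8 WT replicate 2 held 77329 TPM of the haemoglobin gene Hba-a1, against 33.3 TPM in CD8 WT replicate 1, and its T cell genes were low (Cd3d 190 against 504 TPM). Trappc1 was at 30.5 and 32.8 TPM in CD4 KO against 78.7 and 55.0 TPM in CD4 WT, and at 56.9 and 45.6 TPM in CD8 KO against 81.2 and 40.3 TPM in CD8 WT, so the library labelled CD8 WT replicate 2 fell below both CD8 KO libraries. Every direction below that involves CD8 WT draws on that library, whose value is always the second one given. Some printed differences of named genes between CD8 KO and CD8 WT change sign or move by over 1.5 times without that library. These are given both ways. For some named genes only the CD4 difference is printed, and their CD8 differences may move as well. Genes were tested with limma on log2(TPM + 1), with p-values adjusted by the Benjamini-Hochberg method over all 11786 genes and called at 0.05. Differences are of log2(TPM + 1), so changes of low genes are understated, and they are given ± their standard error with n = 2 libraries per group. The median of all genes was -0.16 in CD4 KO minus CD4 WT and moved to 0.03 when libraries were rescaled by median-of-ratios factors. In the CD8 comparison it was 0.05 and moved to -0.04.

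Tnfsf4 stood out among the 10 genes. It lies on the plus strand at chr1:161395438-161418206 (mm10) and encodes OX40 ligand, which antigen-presenting cells and activated T cells carry and which binds the receptor OX40 on T cells. Tnfsf4 measured 52.7 and 50.1 TPM in CD4 KO against 7.10 and 2.62 TPM in CD4 WT. In CD8 cells it measured 40.5 and 33.2 TPM in CD8 KO against 4.14 and 4.84 TPM in CD8 WT. All 4 KO libraries were thus above all 4 WT libraries, with no overlap in either lineage. In CD4 cells the mean was 51.4 ± 1.89 TPM in KO and 4.86 ± 3.16 TPM in WT (SD, n = 2 each), a ratio of 10.6, and Tnfsf4 rose by 3.27 ± 0.49 on the log2 scale (95% interval 2.18 to 4.37), with a limma adjusted p of 0.0318. In CD8 cells the mean was 36.9 ± 5.20 TPM in KO and 4.49 ± 0.50 TPM in WT, a ratio of 8.21, and the difference was 2.78 ± 0.49 (interval 1.69 to 3.88) with a limma adjusted p of 0.0648, above the threshold.

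Over all genes, Tnfsf4 ranked 23 of 11786 by p-value in the CD4 comparison and 42 in the CD8 comparison. It was the only one of the 10 called in CD4 cells, as higher, where 0.713% of all genes were called, 0.187% as higher and 0.526% as lower. None of the 10 was called in CD8 cells, where 0.297% of all genes were called, 0.110% as higher and 0.187% as lower; by unadjusted p under 0.05 it was 1 of the 10, Tnfsf4, against 15.1% of all genes. By the same unadjusted threshold 1 of the 10 passed in CD4 cells, against 16.7% of all genes. The difference between the KO effects on Tnfsf4, CD8 minus CD4, was -0.49 ± 0.69 (interval -2.04 to 1.06; limma adjusted p = 0.854), so a difference between lineages was not shown. Among the tested genes ranked by mean level, Tnfsf4 lay at percentile 71.3 in CD4 KO against 22.6 in CD4 WT, and at 64.9 in CD8 KO against 20.2 in CD8 WT.

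The level was highest in CD4 KO, then in CD8 KO, and lowest in the WT groups, where the 2 CD8 libraries lay between the 2 CD4 libraries. The lineages did not pass the test within a genotype: CD8 KO minus CD4 KO was -0.48 ± 0.49 (limma adjusted p = 0.824) and CD8 WT minus CD4 WT was 0.02 ± 0.49 (adjusted p = 0.994). Deposited coverage, the mean read depth per base, was 67.7 and 64.4 for Tnfsf4 in CD4 KO against 10.5 and 3.46 in CD4 WT. In CD8 cells it was 66.7 and 50.1 in KO against 6.28 and 7.76 in WT. The lower levels thus rest on low coverage, and their read counts are not known. The CD4 call depended on single libraries. It was lost when any of the 4 CD4 libraries, CD8 KO replicate 1 or CD8 KO replicate 2 was left out (limma adjusted p 0.0842 to 0.338, difference 2.69 to 3.86), without a filter on low values (0.0848) and when libraries were scaled to their CD3 chains (0.0699), and it was kept without CD8 WT replicate 1 (0.0162) or, at 0.00812, when the library labelled CD8 WT replicate 2 was left out. The CD8 difference passed with a filter at a mean of 5 TPM (limma adjusted p = 0.0475). With the library labelled CD8 WT replicate 2 as the only CD8 WT library it was 2.69. When that library was left out it was 2.87.

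**Figure D1:**
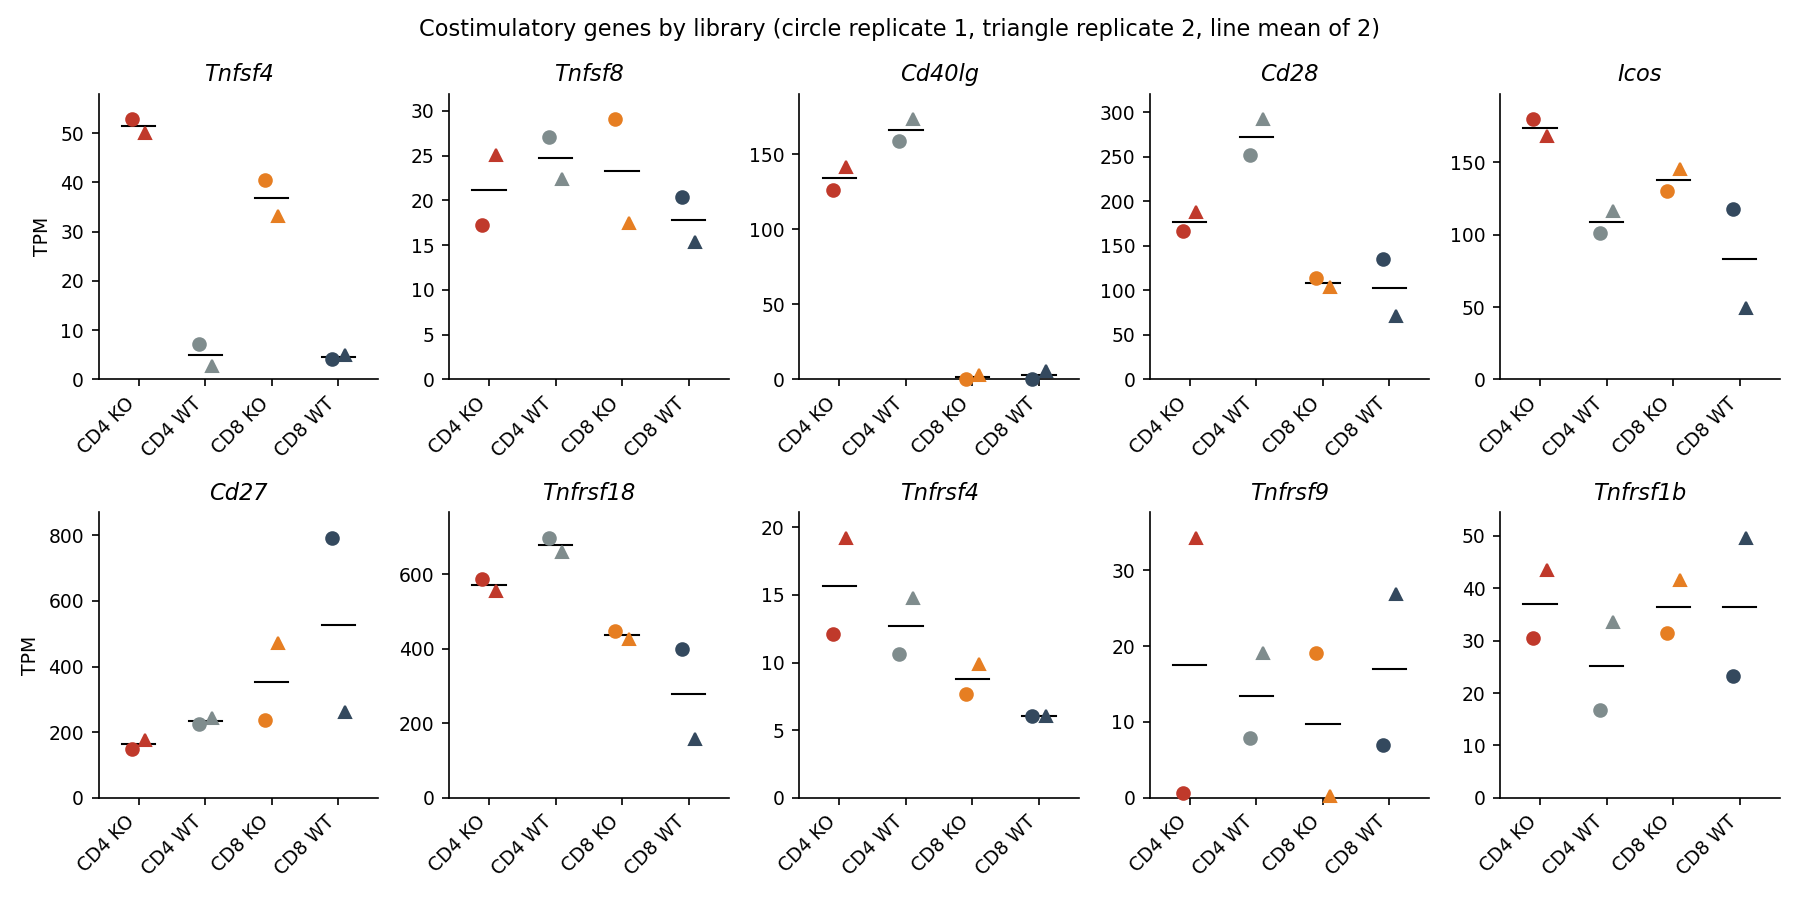
Level of each of the 10 genes in TPM (linear axes from 0) in the 8 libraries, by group; circles are replicate 1, triangles replicate 2 and lines the mean of 2. The 4 KO libraries lie between 33.2 and 52.7 TPM for Tnfsf4 and the 4 WT libraries between 2.62 and 7.10 TPM, while Cd40lg separates CD4 from CD8 cells.

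The 3 genes most like Tnfsf4 across the 8 libraries, by Pearson's r of log2(TPM + 1) among genes averaging 5 TPM or more, were Nop56 (r = 0.982), Ube2b (r = 0.977) and Sec61a1 (r = 0.972). Nop56 encodes a core protein of small nucleolar ribonucleoprotein particles, Ube2b a ubiquitin-conjugating enzyme and Sec61a1 the channel subunit of the endoplasmic reticulum translocon. Sec61a1 measured 304 and 307 TPM in CD4 KO against 141 and 125 TPM in CD4 WT, and 235 and 235 TPM in CD8 KO against 132 and 113 TPM in CD8 WT. These correlations are descriptions over libraries that fall into KO and WT, and carry no test.

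Because OX40 ligand is also made by antigen-presenting cells, markers of other cells were set beside it. The summed level of 8 B cell markers was 2119 and 1992 TPM in CD4 KO against 2875 and 3204 TPM in CD4 WT, and 511 and 528 TPM in CD8 KO against 471 and 1209 TPM in CD8 WT. The sum of 8 markers of antigen-presenting cells, most of it the class II genes Cd74 and H2-Aa that B cells share, was 4097 and 3590 TPM in CD4 KO against 9273 and 6318 TPM in CD4 WT. In CD8 cells that sum was 1142 and 1670 TPM in KO against 956 and 16596 TPM in WT. Both sums were lower in the CD4 KO libraries than in the CD4 WT libraries, although the B cell marker Ms4a1 was at 255 and 264 TPM in CD4 KO against 212 and 222 TPM in CD4 WT. The dendritic cell genes Xcr1, Itgax, Clec9a, Batf3, Zbtb46 and Flt3 were at most at 3.61 TPM in the KO libraries, and Clec9a and Batf3 were listed at 0 in both CD8 KO libraries. Without overlap, Xcr1 was higher in the KO libraries of both lineages, Itgax in CD4 cells and Zbtb46 in CD8 cells. Zbtb46 was at 1.62 and 2.85 TPM in CD8 KO against 0.210 and 1.19 TPM in CD8 WT. In CD4 cells Zbtb46 was at 0.605 and 2.53 TPM in KO against 4.92 and 1.44 TPM in WT, with overlap. In CD4 cells Xcr1 was at 0.310 and 0.208 TPM in KO against 0 in both WT libraries, and in CD8 cells at 1.53 and 0.504 TPM in KO against 0.0888 and 0.0833 TPM in WT. Itgax was at 1.14 and 1.13 TPM in CD4 KO against 0 in both CD4 WT libraries, and at 3.61 and 1.56 TPM in CD8 KO against 0.533 and 12.3 TPM in CD8 WT, with overlap. The sum of 10 myeloid markers did move with Tnfsf4 in CD4 cells, at 1291 and 2191 TPM in KO against 234 and 86.9 TPM in WT. In CD8 cells it was 1175 and 1532 TPM in KO against 640.3 and 29143 TPM in WT. By log2 difference 0 of these 10 were higher and 10 lower in CD8 KO, a median of -1.55 beside 0.05 for all genes. Once the library labelled CD8 WT replicate 2 was left out, 9 were higher and 1 lower, a median of 0.48 beside -0.081. The sum of 5 erythroid genes was 315 and 180 TPM in CD4 KO against 12.3 and 91.8 TPM in CD4 WT, and 173 and 297 TPM in CD8 KO against 1922 and 81696 TPM in CD8 WT.

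**Figure D2:**
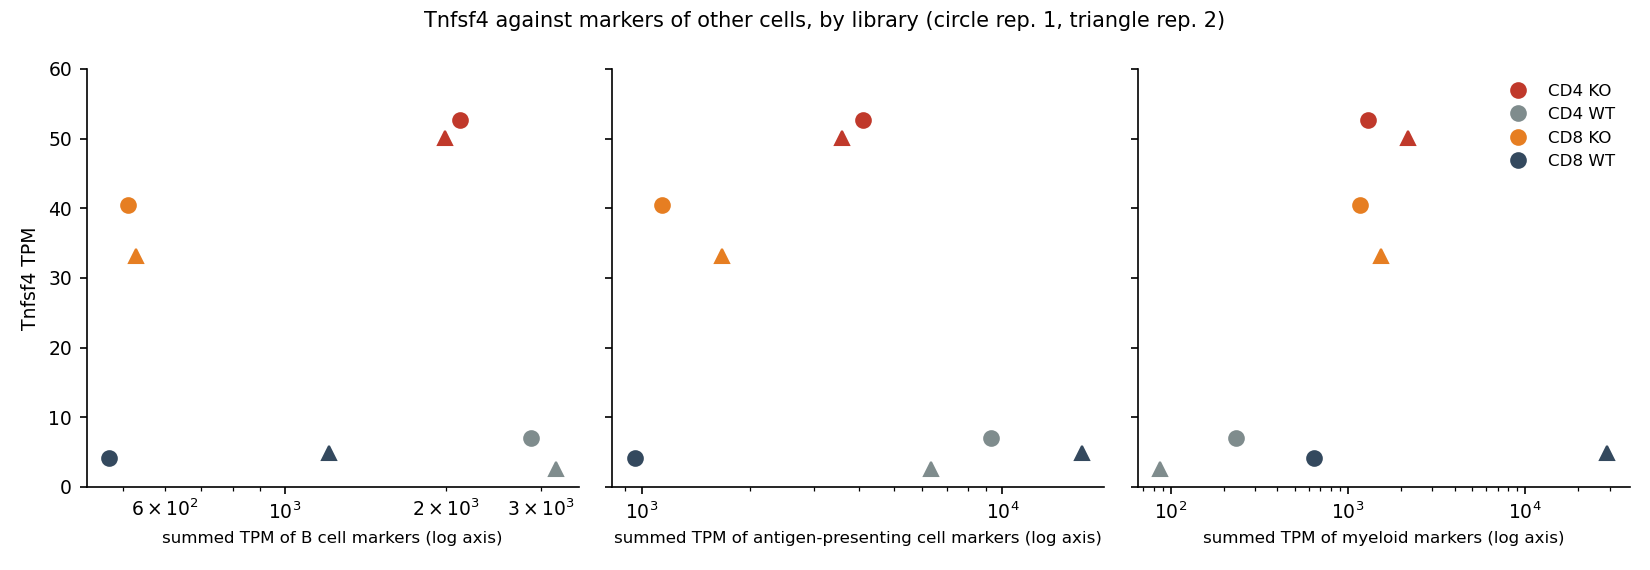
Level of Tnfsf4 in TPM (linear axis) against the summed TPM (log axes) of 8 B cell, 8 antigen-presenting cell and 10 myeloid markers in each library; circles are replicate 1 and triangles replicate 2. Tnfsf4 is at 33.2 to 52.7 TPM in the KO libraries and at 2.62 to 7.10 TPM in the WT libraries. Both CD4 KO libraries have lower B cell and antigen-presenting cell sums than both CD4 WT libraries, and higher myeloid sums (1291 and 2191 against 234 and 86.9 TPM).

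Markers of activated or memory T cells moved with Tnfsf4 in CD4 cells as a sum, but not each gene did. The sum of 12 such genes was 406 and 354 TPM in CD4 KO against 190.5 and 187 TPM in CD4 WT. In CD8 cells the sum was 606 and 663 TPM in KO against 411 and 1016 TPM in WT, with overlap. Without overlap, 8 of the 12 were higher and 2 lower in CD4 KO, beside 21.7% and 36.5% of all genes. The 2 lower ones were Prf1, at 9.42 and 9.86 TPM in KO against 27.7 and 39.9 TPM in WT, and Cxcr3. In CD8 KO 2 were higher (Cxcr3 and Il2rb) and 3 lower without overlap, beside 23.0% and 19.1%. By log2 difference over all 8 libraries 6 of the 12 were higher and 6 lower in CD8 KO, a median of -0.0035 beside 0.05 for all genes. Once the library labelled CD8 WT replicate 2 was left out, 9 of the 11 then tested were higher and 2 lower. Their median was then 1.41 beside -0.081 for all genes. Cxcr3 was at 43.2 and 55.1 TPM in CD8 KO against 10.3 and 12.6 TPM in CD8 WT. Id2, a transcriptional regulator, made up most of the sum in CD4 KO, at 302 and 248 TPM against 123 and 93.2 TPM in CD4 WT. Cd44 was at 8.90 and 6.97 TPM in CD4 KO against 15.4 and 2.39 TPM in CD4 WT, with overlap. The part of these markers and of the myeloid and dendritic cell markers in the level of Tnfsf4 was not tested. In bulk RNA a change in the number of cells that express a gene and a change in RNA per cell cannot be told apart. Set against the T cell content of each library, Tnfsf4 amounted to 32.4 and 30.8 TPM per 1000 TPM of the CD3 chain genes in CD4 KO against 4.22 and 1.61 in CD4 WT. In CD8 cells it was 18.4 and 16.0 in KO against 2.16 and 6.01 in WT, so the groups did not overlap on this scale either.

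The other TNF family ligands did not pass the test between KO and WT. Tnfsf8, whose product binds CD30, measured 17.3 and 25.1 TPM in CD4 KO against 27.1 and 22.4 TPM in CD4 WT, a difference of -0.23 ± 0.43 (interval -1.19 to 0.73; limma adjusted p = 0.828). In CD8 cells Tnfsf8 measured 29.0 and 17.5 TPM in KO against 20.3 and 15.3 TPM in WT, a difference of 0.34 ± 0.43 (limma adjusted p = 0.729), and of 0.14 (0.917) once the library labelled CD8 WT replicate 2 was left out. The groups overlapped in both lineages. Cd40lg (chrX:57212143-57224042, mm10), which helper T cells use to license B cells and dendritic cells through CD40, measured 126 and 141 TPM in CD4 KO against 159 and 173 TPM in CD4 WT. Both CD4 KO libraries were lower, with a difference of -0.31 ± 0.82 (interval -2.15 to 1.53; limma adjusted p = 0.886). In CD8 cells Cd40lg was listed at 0 and 3.12 TPM in KO and at 0.158 and 5.28 TPM in WT.

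Cd28 (chr1:60746388-60773359, mm10) and Icos (chr1:60977914-61000321) encode related receptors and lie 204554 bases apart. In CD4 cells they differed in opposite directions without passing the test. Cd28 measured 166 and 188 TPM in CD4 KO against 252 and 292 TPM in CD4 WT, and Icos 179.7 and 169 TPM in CD4 KO against 101 and 116 TPM in CD4 WT. Neither gene's groups overlapped. The difference was -0.61 ± 0.34 for Cd28 (interval -1.38 to 0.15; limma adjusted p = 0.399). For Icos it was 0.68 ± 0.39 (interval -0.21 to 1.56; limma adjusted p = 0.424). Non-overlap in either direction was common, at 58.1% of all genes in this comparison.

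In CD8 cells Cd28 measured 114 and 103 TPM in KO against 135 and 71.5 TPM in WT, with overlap, and the difference was 0.14 ± 0.34 (limma adjusted p = 0.863). Icos measured 130.2 and 145 TPM in CD8 KO against 118 and 49.2 TPM in CD8 WT. The Icos difference was 0.84 ± 0.39 (interval -0.04 to 1.73; limma adjusted p = 0.348). That value rested on the library labelled CD8 WT replicate 2. Without it the Icos difference was 0.22 and the Cd28 difference turned to -0.31. With that library as the only CD8 WT library, the Icos difference was 1.46. Per 1000 TPM of CD3 chain genes, Icos was at 58.9 and 70.1 in CD8 KO against 61.4 and 61.0 in CD8 WT, with overlap, and at 110.2 and 103.7 in CD4 KO against 60.3 and 71.2 in CD4 WT, without. The difference between the KO effects, CD8 minus CD4, was 0.76 ± 0.48 for Cd28 (limma adjusted p = 0.723) and 0.17 ± 0.56 for Icos (0.945), and these were 0.30 (0.884) and -0.45 (0.826) once the library labelled CD8 WT replicate 2 was left out. With that library as the only CD8 WT library, the Cd28 value was 1.21.

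The ratio of Cd28 to Icos within a library does not depend on library scaling. It was 0.925 and 1.12 in CD4 KO against 2.48 and 2.51 in CD4 WT, and 0.875 and 0.711 in CD8 KO against 1.14 and 1.45 in CD8 WT. All 4 KO libraries were below all 4 WT libraries. The ratio of Tnfsf4 to its receptor Tnfrsf4 was 4.36 and 2.61 in CD4 KO against 0.669 and 0.177 in CD4 WT, and 5.27 and 3.36 in CD8 KO against 0.683 and 0.797 in CD8 WT, so the ligand exceeded the receptor in KO libraries and the receptor exceeded the ligand in WT libraries. These ratios were chosen after the values were seen and were given no test.

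**Figure D3:**
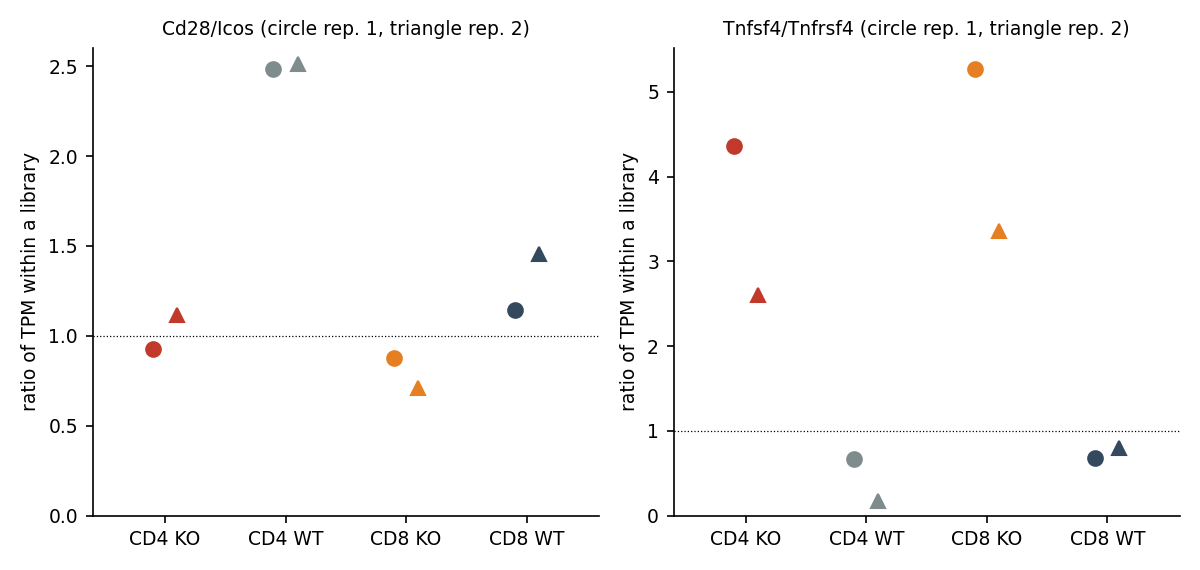
Ratio of TPM of Cd28 to Icos (left) and of Tnfsf4 to Tnfrsf4 (right) within each library, on linear axes from 0; circles are replicate 1, triangles replicate 2 and the dotted line marks equal levels. The Cd28 to Icos ratio lies between 0.711 and 1.12 in KO libraries and between 1.14 and 2.51 in WT libraries.

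None of the 5 TNF receptor family genes passed the test between KO and WT. Cd27, the receptor for CD70, measured 150.1 and 177 TPM in CD4 KO against 225 and 243 TPM in CD4 WT, without overlap and with a difference of -0.52 ± 0.50 (interval -1.63 to 0.60; limma adjusted p = 0.631). In CD8 cells Cd27 measured 237 and 471 TPM in KO against 792 and 262 TPM in WT, a difference of -0.45 ± 0.50 (limma adjusted p = 0.687), and of -1.24 (0.152) once the library labelled CD8 WT replicate 2 was left out. Its CD8 groups overlapped, and replicates of each CD8 group lay far apart.

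Tnfrsf18 encodes GITR, a receptor that regulatory T cells carry at high level and resting T cells at a lower one. It was the most abundant of the 10 in CD4 cells, at percentile 97.8 of the tested genes in CD4 KO and 98.3 in CD4 WT. Tnfrsf18 measured 587 and 554 TPM in CD4 KO against 698 and 660.3 TPM in CD4 WT, and 447 and 427 TPM in CD8 KO against 399 and 159 TPM in CD8 WT. KO libraries were thus all lower in CD4 cells and all higher in CD8 cells. The CD4 difference was -0.25 ± 0.39 (interval -1.13 to 0.63; limma adjusted p = 0.787) and the CD8 difference 0.79 ± 0.39 (interval -0.09 to 1.67; limma adjusted p = 0.376). The difference between the KO effects was 1.04 ± 0.55 (limma adjusted p = 0.701), and 0.38 (0.811) once the library labelled CD8 WT replicate 2 was left out. The CD8 difference was 0.13 without the library labelled CD8 WT replicate 2. With that library as the only CD8 WT library it was 1.45, and the difference between the effects was 1.70. Per 1000 TPM of CD3 chain genes, Tnfrsf18 was at 203 and 206 in CD8 KO against 208 and 198 in CD8 WT, with overlap. Regulatory T cells were assessed with 8 markers, whose sum was 163 and 188 TPM in CD4 KO against 172 and 217 TPM in CD4 WT. Foxp3, the factor that defines them, was at 6.29 and 7.43 TPM in CD4 KO against 6.38 and 14.4 TPM in CD4 WT. In CD8 cells the sum of the 8 markers was 407 and 338 TPM in KO against 186 and 199 TPM in WT, without overlap. Most of it in CD8 KO was Itgae, at 302 and 224 TPM. Singly, 3 of the 8 were higher and 1 lower in CD8 KO without overlap, beside 23.0% and 19.1% of all genes. Foxp3 was at most at 0.145 TPM in CD8 libraries.

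Tnfrsf4, the receptor of OX40 ligand, lies 9752 bases upstream of Tnfrsf18 in the same orientation, and its level was far lower. It measured 12.1 and 19.2 TPM in CD4 KO against 10.6 and 14.8 TPM in CD4 WT, a difference of 0.27 ± 0.48 (interval -0.81 to 1.35; limma adjusted p = 0.822). In CD8 cells Tnfrsf4 measured 7.70 and 9.89 TPM in KO against 6.07 and 6.08 TPM in WT, a difference of 0.46 ± 0.48 (limma adjusted p = 0.666). Both CD8 KO libraries were above both CD8 WT libraries, and the CD4 groups overlapped. Tnfrsf9, the receptor for the 4-1BB ligand, had the widest spread: 0.656 and 34.2 TPM in CD4 KO against 7.84 and 19.1 TPM in CD4 WT, and 19.0 and 0.298 TPM in CD8 KO against 7.01 and 26.9 TPM in CD8 WT. Its differences were -0.80 ± 1.51 in CD4 cells (interval -4.17 to 2.57; limma adjusted p = 0.828) and -1.55 ± 1.51 in CD8 cells (interval -4.92 to 1.82; limma adjusted p = 0.639). The CD8 difference was -0.65 (limma adjusted p = 0.904) once the library labelled CD8 WT replicate 2 was left out. At this spread neither a large rise nor a large fall could be detected.

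Tnfrsf1b, the TNF receptor found on lymphocytes and myeloid cells, measured 30.4 and 43.6 TPM in CD4 KO against 16.8 and 33.6 TPM in CD4 WT, and 31.4 and 41.5 TPM in CD8 KO against 23.2 and 49.6 TPM in CD8 WT. The differences were 0.59 ± 0.49 in CD4 cells (interval -0.50 to 1.69; limma adjusted p = 0.572) and 0.08 ± 0.49 in CD8 cells (limma adjusted p = 0.949), with overlap in both. The CD8 difference was 0.61 (0.576) once the library labelled CD8 WT replicate 2 was left out.

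Promoter windows are shown for 3 of the TNF receptor genes on chromosome 4, because Tnfrsf4 and Tnfrsf18 are close neighbours with unequal levels and Tnfrsf9 was the one with motif matches. Each is the 250 bases before the start of transcription on the plus strand of GRCm38.p6, from RefSeq, in which 6 of the 10 genes were matched. Capitals mark motif matches. In the order printed the windows are chr4:156013445-156013694, chr4:156026072-156026321 and, for the second of 2 Tnfrsf9 starts, chr4:150927749-150927998.
Tnfrsf4: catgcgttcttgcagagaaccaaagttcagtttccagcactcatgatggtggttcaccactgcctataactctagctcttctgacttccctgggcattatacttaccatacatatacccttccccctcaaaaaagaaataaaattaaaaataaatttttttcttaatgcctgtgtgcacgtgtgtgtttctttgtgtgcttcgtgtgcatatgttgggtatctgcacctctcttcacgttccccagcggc
Tnfrsf18: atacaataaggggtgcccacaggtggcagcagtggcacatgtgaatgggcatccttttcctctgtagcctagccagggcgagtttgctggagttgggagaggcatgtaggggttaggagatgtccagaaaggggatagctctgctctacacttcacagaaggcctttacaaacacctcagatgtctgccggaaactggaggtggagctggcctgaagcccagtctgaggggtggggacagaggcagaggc
Tnfrsf9: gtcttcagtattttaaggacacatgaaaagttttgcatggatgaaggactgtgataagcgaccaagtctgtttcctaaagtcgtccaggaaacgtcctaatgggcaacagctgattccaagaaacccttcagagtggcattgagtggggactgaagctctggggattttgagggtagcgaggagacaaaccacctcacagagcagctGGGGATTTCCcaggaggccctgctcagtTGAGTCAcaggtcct

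The Tnfrsf18 window had 56.0% G and C with 2 CpG dinucleotides, against 42.8% and 5 in the Tnfrsf4 window, while the median of all windows was 52.4% and 6. On both strands, an NF-kB motif (3 G, any 2 bases, 3 T, 2 C) is held by 1.41% of 32851 windows, the AP-1 motif TGANTCA by 6.75% and the p53 half-site by 7.13%. Among the windows of the 6 genes, the second Tnfrsf9 window alone matched, with an NF-kB match starting 43 bases and an AP-1 match starting 15 bases before the start. The 2 matches do not overlap. They describe the letters of the window and are not sites shown to be used here.

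As a group the 10 genes were split in direction. By log2 difference, 4 were higher and 6 lower in CD4 KO, with a median of -0.24 beside -0.16 for all genes. Tnfrsf9, counted among the 6, averaged 17.5 TPM in CD4 KO and 13.5 TPM in CD4 WT. In CD4 cells the libraries did not overlap for 2 higher (Tnfsf4, Icos) and 4 lower genes (Cd28, Cd27, Tnfrsf18, Cd40lg), where 21.7% of all genes were higher and 36.5% lower without overlap. In CD8 cells 7 were higher and 3 lower, with a median of 0.24 beside 0.05 for all genes, and libraries did not overlap for 4 genes, all higher (Tnfsf4, Icos, Tnfrsf18, Tnfrsf4), where 23.0% of all genes were higher and 19.1% lower without overlap (42.1% in all). The counts were again 7 and 3 once the library labelled CD8 WT replicate 2 was left out, with a median of 0.18, but Cd28 was then among the lower genes (-0.31) and Cd40lg among the higher ones (0.81, against -0.41 with all libraries). When libraries were scaled to their CD3 chains the CD8 differences of Tnfrsf4, Tnfrsf1b, Tnfsf8 and Cd28 turned negative, and the one of Tnfrsf1b also did under median-of-ratios scaling. For the difference of the KO effects none of the 10 was called by limma, nor by unadjusted p under 0.05, where 0% of all genes were called and 6.95% had such a p.

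**Figure D4:**
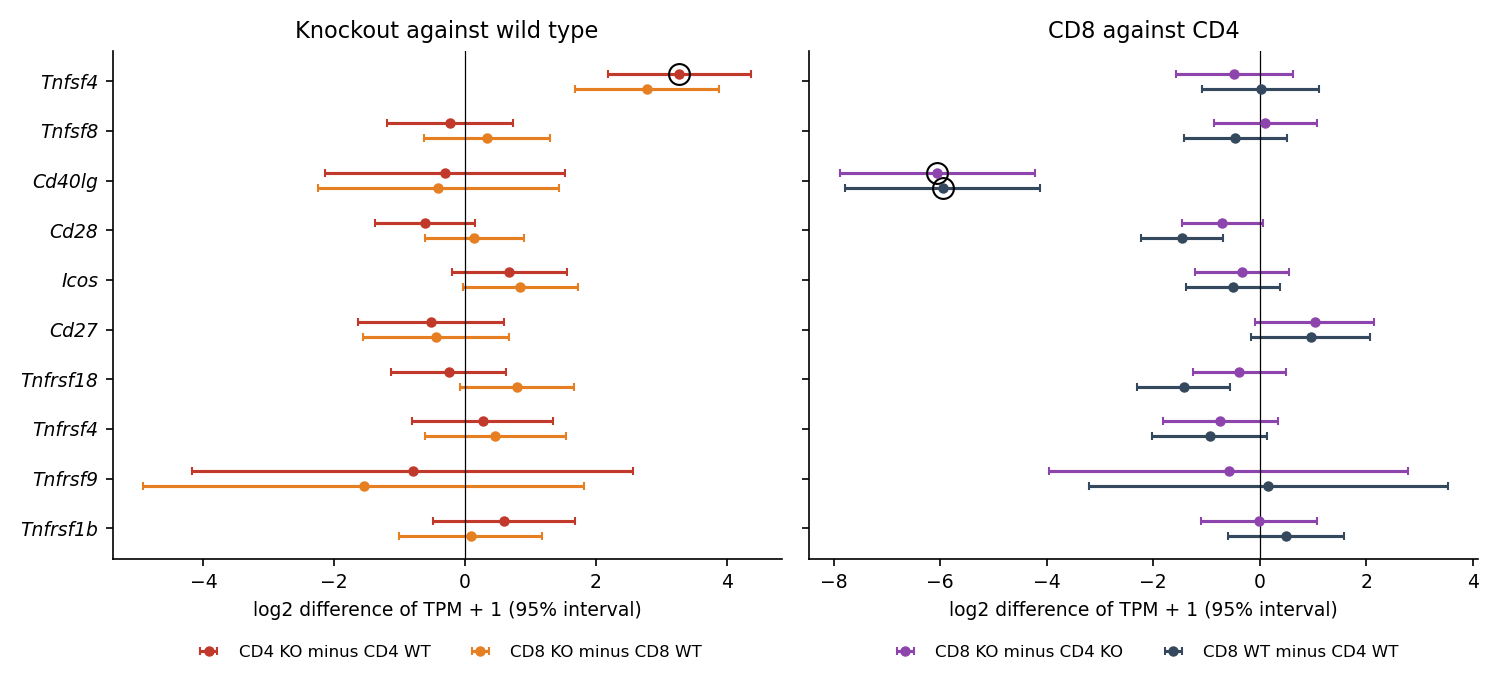
Differences of log2(TPM + 1) with 95% intervals for the 10 genes, KO minus WT in each lineage (left) and CD8 minus CD4 in each genotype (right); rings mark limma adjusted p under 0.05. Tnfsf4 lies at 3.27 in CD4 and 2.78 in CD8 cells, and Cd40lg lies at -6.05 in KO and -5.95 in WT cells.

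Between the lineages, Cd40lg fell in CD8 cells of both genotypes. In KO mice it measured 0 and 3.12 TPM in CD8 KO against 126 and 141 TPM in CD4 KO, and fell by 6.05 ± 0.82 on the log2 scale (limma adjusted p = 0.0177). In WT mice it measured 0.158 and 5.28 TPM in CD8 WT against 159 and 173 TPM in CD4 WT, and fell by 5.95 ± 0.82 (limma adjusted p = 0.0249). It was the 1 gene of the 10 called in each of these comparisons, where 0.280% of all genes were called in KO (0.187% higher, 0.0933% lower) and 0.195% in WT (0.110% higher, 0.0848% lower). By unadjusted p under 0.05 it was 1 of the 10 in KO, against 9.52% of all genes, and 3 of the 10 in WT, against 8.67%. The KO call was lost when any of the 4 CD4 libraries, CD8 KO replicate 1 or CD8 KO replicate 2 was left out (limma adjusted p 0.117 to 0.293), and the WT call when any of the 4 CD4 libraries was left out (0.0865 to 0.382). Both were also lost with a pseudocount of 0.1 (limma adjusted p 0.117 in KO and 0.195 in WT), with no filter (0.115 and 0.246) and with scaling to CD3 chains (0.0774 and 0.165), and the WT call with median-of-ratios scaling (0.0659) and with the trend against gene span removed (0.0686). The 2 comparisons take their means from different libraries but share 1 estimate of spread pooled over the 4 groups, so their p-values are not independent.

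The other 9 genes did not pass between the lineages. Cd28 was lower in CD8 cells without overlap, with a difference of -0.70 ± 0.34 in KO (limma adjusted p = 0.544) and -1.46 ± 0.34 in WT (0.205). Tnfrsf18 was at -0.38 ± 0.39 in KO (limma adjusted p = 0.822) and -1.42 ± 0.39 in WT (0.313). The WT values moved with the library labelled CD8 WT replicate 2: without it they were -1.0 for Cd28 and -0.76 for Tnfrsf18. With that library as the only CD8 WT library they were -1.91 and -2.08, and the Icos value was -1.13. Cd27 was higher in CD8 cells, at 1.03 ± 0.50 in KO (limma adjusted p = 0.544) and 0.96 ± 0.50 in WT (0.597), without overlap, and the WT value was 1.75 (0.0983) once the library labelled CD8 WT replicate 2 was left out. Tnfrsf4 lay at -0.74 ± 0.48 in KO and -0.94 ± 0.48 in WT, also without overlap. In all, libraries did not overlap for 1 higher and 6 lower genes in KO, where the shares of all genes were 23.6% and 25.8% (49.4% in all), and for 1 higher and 5 lower genes in WT, where they were 9.53% and 24.8% (34.3% in all).

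The binding partners of these receptors and other costimulatory genes formed a list of 22, of which 18 were tested. In CD4 cells 8 were higher and 10 lower in KO, a median of -0.07 beside -0.16 for all genes. None was called by limma and 2 had an unadjusted p under 0.05, against 16.7% of all genes. In CD8 cells 7 were higher and 11 lower, a median of -0.31 beside 0.05. None was called there and 2 had such an unadjusted p, against 15.1% of all genes. The CD8 median was -0.17 once the library labelled CD8 WT replicate 2 was left out. Ltb, a subunit of lymphotoxin, was the most abundant, at 1861 and 1519 TPM in CD4 KO against 2101 and 1450 TPM in CD4 WT and at 2466 and 2842 TPM in CD8 KO against 1732 and 671 TPM in CD8 WT. Its differences were -0.05 ± 0.43 in CD4 cells (limma adjusted p = 0.968) and 1.30 ± 0.43 in CD8 cells (0.228), which was 0.61 (0.283) once the library labelled CD8 WT replicate 2 was left out. Cd2, an adhesion receptor that binds CD48 in mice, measured 852 and 909 TPM in CD4 KO against 1915 and 1567 TPM in CD4 WT, a difference of -0.98 ± 0.34 (limma adjusted p = 0.191). The CD8 difference of Cd2 was 0.21 ± 0.34 (limma adjusted p = 0.785) and turned to -0.21 once the library labelled CD8 WT replicate 2 was left out. Without the library labelled CD8 WT replicate 2, 7.99% of all genes were called in the CD4 comparison, and 2 of the 16 partners then tested passed as lower, Cd2 (limma adjusted p = 0.0190) and Slamf6 (0.0226). Cd70, the ligand of CD27, was listed at 0 in all 8 libraries. Tnfsf9, the ligand of 4-1BB, named here after its values were seen, measured 13.3 and 15.7 TPM in CD4 KO against 3.81 and 5.35 TPM in CD4 WT, a difference of 1.49 ± 0.65 (limma adjusted p = 0.292). In CD8 cells Tnfsf9 measured 13.1 and 5.28 TPM in KO against 2.33 and 8.29 TPM in WT, with overlap.

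Genes that carry the signal of TNF receptors were split in direction. Of 16 genes, 7 were higher and 9 lower in CD4 KO, a median of -0.14 beside -0.16 for all genes. None was called by limma and 6 had an unadjusted p under 0.05, against 16.7% of all genes. In CD8 KO 9 were higher and 7 lower, a median of 0.15 beside 0.05 for all genes. None was called there and 4 had such an unadjusted p, against 15.1% of all genes. With the library labelled CD8 WT replicate 2 left out, 8 were higher and 8 lower in CD8 KO, a median of 0.01. Nfkbia, the inhibitor of NF-kB that NF-kB itself induces, measured 3347 and 2862 TPM in CD4 KO against 890.4 and 884 TPM in CD4 WT, a difference of 1.80 ± 0.41 (limma adjusted p = 0.0826). In CD8 cells Nfkbia measured 1516 and 1652 TPM in KO against 814 and 2094 TPM in WT, a difference of 0.28 ± 0.41 (0.767), and of 0.96 ± 0.19 (0.0611) when the library labelled CD8 WT replicate 2 was left out. Birc3, a ubiquitin ligase bound by TRAF2, measured 238 and 342 TPM in CD4 KO against 353 and 337 TPM in CD4 WT, and 142 and 147 TPM in CD8 KO against 244 and 423 TPM in CD8 WT, with differences of -0.27 ± 0.33 (limma adjusted p = 0.719) and -1.15 ± 0.33 (0.188). The CD8 difference of Birc3 was -0.75 (0.194) when the library labelled CD8 WT replicate 2 was left out. Without the library labelled CD8 WT replicate 2, 4 of the 16 passed in CD4 cells, all higher in KO, where 7.99% of all genes were called. They were Nfkbia (limma adjusted p = 0.00145), Tnfaip3 (0.0210), Birc2 (0.0246) and Nfkb2 (0.0366), with unchanged differences of 1.80, 0.96, 1.17 and 1.74.

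Of 17 genes that carry the signal of CD28 and ICOS, 3 were higher and 14 lower in CD4 KO. None was called by limma and 5 had an unadjusted p under 0.05, against 16.7% of all genes. The median of the 17 was -0.46 beside -0.16 for all genes. Long genes were lower in KO as a class: of 1054 tested genes that span 100000 bases or more, 89.2% were lower in CD4 KO, against 58.0% of all genes, and 83.3% were lower in CD8 KO, against 47.3%. Such genes were 4 of these 17 (23.5%), against 8.94% of all genes tested, and none of the 10 costimulatory genes. With the trend against gene span removed, 8 of the 17 were higher and 9 lower in CD4 KO, a median of -0.022 beside 0.0046 for all genes. In CD8 KO 10 were higher and 7 lower, a median of 0.04 beside 0.05 for all genes. None was called there and 2 had such an unadjusted p, against 15.1% of all genes. But 2 were higher and 15 lower once the library labelled CD8 WT replicate 2 was left out, a median of -0.31 beside -0.081 for all genes. Lck, the kinase that starts antigen receptor signalling, measured 731 and 811 TPM in CD4 KO against 1195 and 1004 TPM in CD4 WT, a difference of -0.51 ± 0.43 (limma adjusted p = 0.586). In CD8 cells Lck measured 1610 and 1484 TPM in KO against 1679 and 592 TPM in WT, a difference of 0.63 ± 0.43 (0.504) that turned to -0.12 (0.808) when the library labelled CD8 WT replicate 2 was left out. Grap2, the adaptor that joins SLP-76 to CD28 and LAT, and Prkcq, the protein kinase C theta of the CD28 pathway, are named after their values were seen. Their differences in CD4 cells were -1.32 and -1.20, with neither called over all 8 libraries. Both values are without removal of the span trend.

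**Figure D5:**
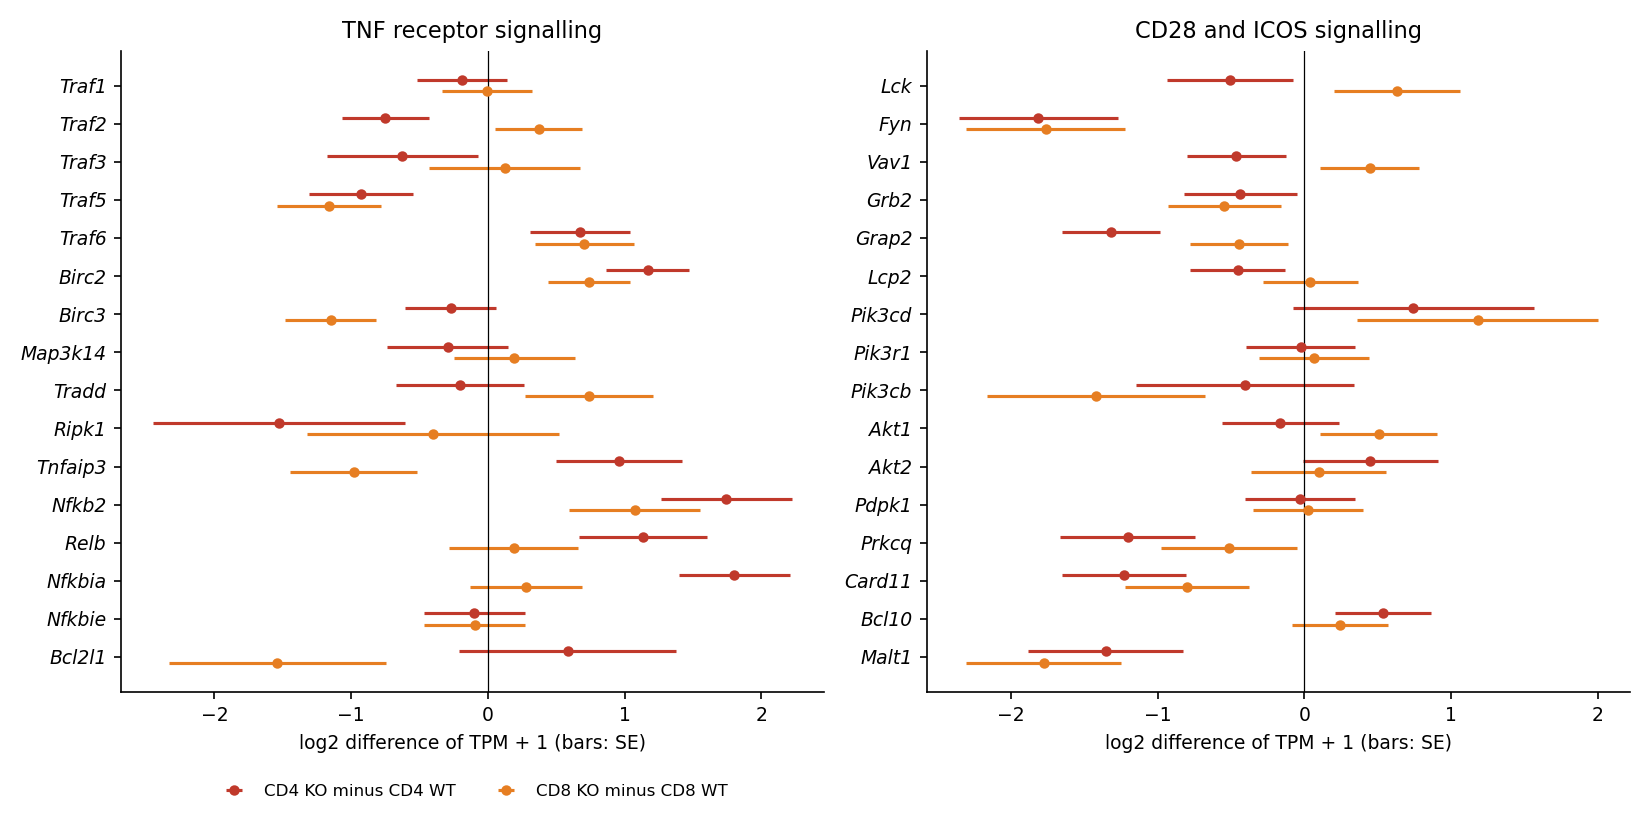
Differences of log2(TPM + 1), KO minus WT, with standard errors for 16 TNF receptor signalling genes (left) and 16 of the 17 CD28 and ICOS signalling genes (right) in CD4 and CD8 cells. In CD4 cells Nfkbia lies at 1.80 and Nfkb2 at 1.74, and Grap2 lies at -1.32 and Prkcq at -1.20, with none called over all 8 libraries.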

How the data were processed

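RNA was sequenced from 8 libraries in 4 groups of 2, grouped by the genotype and cell type in the labels. TRIzol was used for extraction and a SMARTER mRNA kit for library preparation, per the labels' protocols. Reads were aligned with HISAT to mm10, per the submitters' processing notes; its version, and the program that wrote the tables, were not given in the sources used here. The deposited tables give TPM per gene, per the file headers. FPKM and coverage (mean read depth per base) are also in the deposited tables, per the file headers, and their ratio gave the depth. The labels name DESeq2 for the authors' own analysis, which is not used here because the tables hold no read counts.

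Rows of a symbol were summed, genes averaging 1 TPM or more were kept (11786), and limma 3.58.1 in R 4.3.3 (with data.table, version 1.17.8) was run on log2(TPM + 1) with its trend option, a mean for each group and the spread pooled over the 4 groups (4 residual degrees of freedom, prior 5.68). Adjusted p-values are Benjamini-Hochberg over all genes. As nothing says that replicates came from separate mice, p-values measure only how far these libraries spread, which may be technical. In simulated data for the CD4 comparison over 11786 genes, limma recovered 0 of 67 genes shifted by a log2 value of 1, 21 of 67 (31.3%) shifted by 2 and 43 of 66 (65.2%) shifted by 3, with 0 false calls. Its noise was normal, with 1 SD per gene for all groups, whereas real replicates correlated at 0.821 in CD8 WT and 0.929 to 0.951 elsewhere. Only genes with a mean log2(TPM + 1) above 3 in CD4 WT were shifted, and Tnfsf4, at 4.86 TPM there, lay below that. The rates hold for that setting and may differ in the real data.

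The 10 genes, the lists and the tests were chosen with earlier results of these data known. All 10 genes are named. From each signalling or partner list the called genes and the 2 of highest mean TPM are named, others only where stated; 1 gene that this rule names is counted in its list but not reported here by name. Alternatives were other pseudocounts (0.1 and 5 TPM), filters (none, mean of 5 TPM), median-of-ratios scaling, library weights, a replicate block, removal of the trend with gene span, fits of only the groups compared, leaving out each library, and, chosen after seeing the data, scaling to the CD3 chain genes (Cd3d, Cd3e, Cd3g and Cd247).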

Additional observations from a re-analysis of the deposited data

Results flagged for a closer look

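Tnfrsf18, which encodes GITR, was the 1 result whose libraries went opposite ways in the 2 lineages. Both CD4 KO libraries (587 and 554 TPM) were below both CD4 WT libraries (698 and 660.3 TPM), and both CD8 KO libraries (447 and 427 TPM) were above both CD8 WT libraries (399 and 159 TPM). The KO effect in CD8 cells minus that in CD4 cells was 1.04 ± 0.55 on the log2 scale, with a limma adjusted p of 0.701 over all genes, so the difference between the lineages did not pass the test. It was 0.38 (limma adjusted p = 0.811) when the library labelled CD8 WT replicate 2 was left out.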

How the results depend on the processing

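With 2 libraries per group, shifts of 1 on the log2 scale were not recovered in the simulated data, whose spread was more even than the real one. Low levels such as that of Tnfsf4 in WT rest on low coverage, and their read counts are not known. Over 50 differences of the 10 genes and up to 18 alternatives, 55 of 890 values changed sign, none of them in a called result. The cause of each change was not tested.

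Over all genes the CD4 KO comparison called 84 genes (22 higher, 62 lower), 974 when only the groups compared were fitted, 1260 with library weights, 141 (62 higher, 79 lower) with median-of-ratios scaling, 22 (16 higher, 6 lower) with the span trend removed, 49 with scaling to CD3 chains and 0 with no filter. The CD8 KO comparison called 35 genes, 0 when fitted alone, 0 with library weights, 0 with no filter and 120 with scaling to CD3 chains. CD8 KO minus CD4 KO called 33 genes, 306 when fitted alone, 353 with library weights, 50 with median-of-ratios scaling and 0 with no filter. CD8 WT minus CD4 WT called 23 genes, 8 when fitted alone, 15 with library weights and 1 with no filter.

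Of the 10 genes, the CD4 KO comparison called 1 (Tnfsf4), and 0 with no filter or scaling to CD3 chains. The CD8 KO comparison called 0, and 1 (Tnfsf4) with a mean of at least 5 TPM. Both lineage comparisons called 1 (Cd40lg), and 0 with a pseudocount of 0.1, no filter or scaling to CD3 chains, and CD8 WT minus CD4 WT also 0 with median-of-ratios scaling or the span trend removed.

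Leaving out 1 library in turn gave 0 to 925 called genes for the CD4 KO comparison, 0 to 1809 for CD8 KO, 0 to 1133 for the difference of the KO effects, 0 to 1609 for CD8 WT minus CD4 WT and 2 to 210 for CD8 KO minus CD4 KO. Of the 10 genes it gave 0 to 1, 0 to 3, 0 to 2, 0 to 4 and 0 to 1 in the same order; the highest count in CD8 KO (Tnfsf4, Icos, Tnfrsf18), in the difference of the effects (Tnfrsf18, Cd28) and in CD8 WT minus CD4 WT (Cd40lg, Cd28, Tnfrsf18, Icos) came without CD8 WT replicate 1.

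The labels do not say whether the replicate numbers pair the samples. Deviations of same-numbered libraries correlated at -0.04 to 0.09, which with 2 libraries per group cannot decide it. With the replicate block the CD4 KO comparison called 29 genes, and of the 10 genes 1 (Tnfsf4, limma adjusted p = 0.0408).

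Uncalled differences that changed sign were as follows. With median-of-ratios scaling, Tnfrsf1b in CD8 KO was -0.017, and the difference of the KO effects was -0.10 for Tnfrsf4, -0.15 for Icos and -0.25 for Cd27. With a pseudocount of 5, the difference of the effects was 0.11 for Cd40lg, and CD8 WT minus CD4 WT was -0.018 for Tnfsf4. With the span trend removed, the difference of the effects was -0.085 for Icos and -0.11 for Cd27. With scaling to CD3 chains, the CD8 KO difference was -0.24 for Tnfrsf4, -0.68 for Tnfrsf1b, -0.41 for Tnfsf8 and -0.63 for Cd28. On the same scale the difference of the effects was -0.21 for Tnfsf8, -0.63 for Icos, -0.042 for Cd28, -0.53 for Tnfrsf4 and -0.73 for Cd27, and CD8 KO minus CD4 KO was -0.26 for Tnfsf8.

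With 1 library left out, the CD4 KO difference ranged from -0.047 to 0.58 for Tnfrsf4, -3.01 to 1.40 for Tnfrsf9 and -0.49 to 0.026 for Tnfsf8. The CD8 KO difference ranged from -3.53 to 0.42 for Tnfrsf9, -1.24 to 0.35 for Cd27, -0.31 to 0.60 for Cd28, -1.63 to 0.81 for Cd40lg, -0.013 to 0.69 for Tnfsf8 and -0.45 to 0.61 for Tnfrsf1b. The difference of the effects ranged from -1.07 to 0.088 for Tnfsf4, -0.12 to 0.51 for Tnfrsf4, -2.95 to 1.46 for Tnfrsf9, -0.72 to 0.87 for Cd27, -0.45 to 0.79 for Icos, -1.32 to 1.12 for Cd40lg and -1.04 to 0.021 for Tnfrsf1b. CD8 WT minus CD4 WT ranged from -0.56 to 0.60 for Tnfsf4, -0.74 to 1.07 for Tnfrsf9, -1.13 to 0.12 for Icos and -0.034 to 1.03 for Tnfrsf1b. CD8 KO minus CD4 KO ranged from -2.79 to 1.62 for Tnfrsf9, -0.24 to 0.46 for Tnfsf8 and -0.26 to 0.24 for Tnfrsf1b.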
